A study of Mus musculus with 8 samples.

Results

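The 8 genes described here belong to the SLC22 family of organic ion transporters, in which Slc22a18 is an orphan member. They are Slc22a2, Slc22a4, Slc22a5, Slc22a6, Slc22a7, Slc22a8, Slc22a12 and Slc22a18, listed by symbol, out of 26 genes of the table whose symbol starts with Slc22a and 53700 genes in all. All 8 were measured in every library and passed the filter on low values (at least 1 FPKM in at least 2 libraries), as did 13566 genes in total. FPKM is the number of fragments scaled to transcript length and library depth, so it can be compared between genes.

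SLC22 proteins sit in the plasma membrane of polarised epithelia and carry charged organic molecules, among them metabolites, drugs, toxins, carnitine and urate. In the proximal tubule the organic cation and organic anion carriers of the basolateral side take up substrates from blood, and carriers and pumps of the brush border pass them to the urine or take urate and carnitine back. Several of these genes are known to be expressed at different levels in male and female rodent kidneys, and HNF4 factors are known regulators of the organic anion carriers.

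RNA was measured in flow-sorted kidney epithelial cells of Pkd1KO mice, which lose Pkd1 in the whole body after tamoxifen through a CAGG-driven CreER, given at 5 to 6 weeks of age. For 1 week the mice received 2.8 g of food per day with 6% protein (LP, 2 libraries), 18% protein (NP, 3 libraries) or 60% protein (HP, 3 libraries), and each library was a pool of 2 to 3 mice. The diets also differed in sucrose and starch. Every library carried the Pkd1 deletion, and no floxed control was among the libraries. The titles add F1, F2, M or KO7 to the diet. The labels do not define these, so the libraries are called by them here: LP F2, LP M, NP F2, NP KO7, NP M, HP F1, HP F2 and HP M.

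Pkd1 itself was between 1.38 and 4.11 FPKM in the 8 libraries, and without an undeleted library this does not check the deletion. Depth, estimated from the steps between low FPKM values, was 27100000 to 35500000 fragments per library. Library correlations over log2(FPKM + 1) were 0.955 to 0.983. Lists of 20 proximal tubule, 8 thick ascending limb, 11 collecting duct and 10 macrophage markers had no member at 0 in any library, so RNA of these cell types was present in all 8. NP KO7 carried the Y-linked Ddx3y at 7.99 FPKM and Xist at 0.78 FPKM, and in NP M and HP M too Ddx3y was high (12.4 and 11.7 FPKM) and Xist low (0.81 and 1.09 FPKM). LP M held both Ddx3y (9.74 FPKM) and Xist (16.3 FPKM). No other library held both, so LP M did not match a pool of 1 sex, and calls between the labels are also given without it. Nothing says which animals a pool shared with another, so p-values measure the spread between pools.

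Promoter sequences of RefSeq (GRCm38.p6, 250 bases before to 50 after the start) were found for 7 of the 8 genes. Slc22a8 and Slc22a6 are shown because they are neighbours on chromosome 19, of which Slc22a6 was called between the labels and Slc22a8 was not, with a difference of the opposite sign, and Slc22a5 because it had the lowest p of the 8 in the comparison of HP with NP. Capitals mark GGGCGG, a GC box, on either strand (CCGCCC when read on the other).
Slc22a6, chr19:8617746-8618045, plus strand: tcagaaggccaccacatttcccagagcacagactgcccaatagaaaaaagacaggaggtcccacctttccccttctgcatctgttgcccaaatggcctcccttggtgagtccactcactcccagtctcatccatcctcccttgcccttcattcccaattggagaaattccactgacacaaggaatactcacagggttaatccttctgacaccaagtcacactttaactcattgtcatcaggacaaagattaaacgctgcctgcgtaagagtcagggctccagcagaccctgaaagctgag
Slc22a8, chr19:8592932-8593231, plus strand: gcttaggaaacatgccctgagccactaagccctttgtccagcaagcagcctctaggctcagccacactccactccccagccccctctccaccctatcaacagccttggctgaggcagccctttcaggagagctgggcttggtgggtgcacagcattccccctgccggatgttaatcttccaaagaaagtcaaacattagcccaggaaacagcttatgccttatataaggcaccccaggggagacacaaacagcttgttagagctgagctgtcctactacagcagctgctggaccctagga
Slc22a5, chr11:53891654-53891953, minus strand: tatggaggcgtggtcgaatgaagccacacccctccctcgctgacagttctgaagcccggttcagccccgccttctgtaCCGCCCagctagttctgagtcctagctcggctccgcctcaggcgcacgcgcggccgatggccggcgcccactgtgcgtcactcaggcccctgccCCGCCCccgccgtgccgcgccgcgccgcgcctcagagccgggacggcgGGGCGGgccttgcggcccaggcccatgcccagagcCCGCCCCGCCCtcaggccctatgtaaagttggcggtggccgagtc
GGGCGG occurred 5 times in the Slc22a5 window, where 1 match overlaps the next by a base, 2 times in that of Slc22a4 and 1 time in that of Slc22a12, and in none of the other 4 windows, those of Slc22a6 and Slc22a8 included. Of 32851 promoter windows of the same length, 35.7% had a match. A match is a description of these letters and not a bound site.

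The order of the members by mean FPKM over the 8 libraries ran from Slc22a12 (328 ± 79.7, SD, n = 8) and Slc22a18 (320 ± 57.3) over Slc22a8 (160 ± 23.7), Slc22a6 (142 ± 39.5), Slc22a5 (81.8 ± 25.1), Slc22a2 (75.9 ± 13.8) and Slc22a7 (48.9 ± 39.5) to Slc22a4 (27.1 ± 3.36). Neighbours in that order were often not apart: Slc22a12 exceeded Slc22a18 in 5 of 8 libraries, Slc22a8 exceeded Slc22a6 in 4 and Slc22a5 exceeded Slc22a2 in 5. Slc22a18 lay above Slc22a8, and Slc22a6 above Slc22a5, in all 8. Together the 8 genes made up 0.0964 to 0.149% of the FPKM of a library. Slc22a7 varied most, 16.1-fold between its lowest and highest library, and the other 7 varied 1.38-fold to 2.15-fold.

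**Figure D1:**
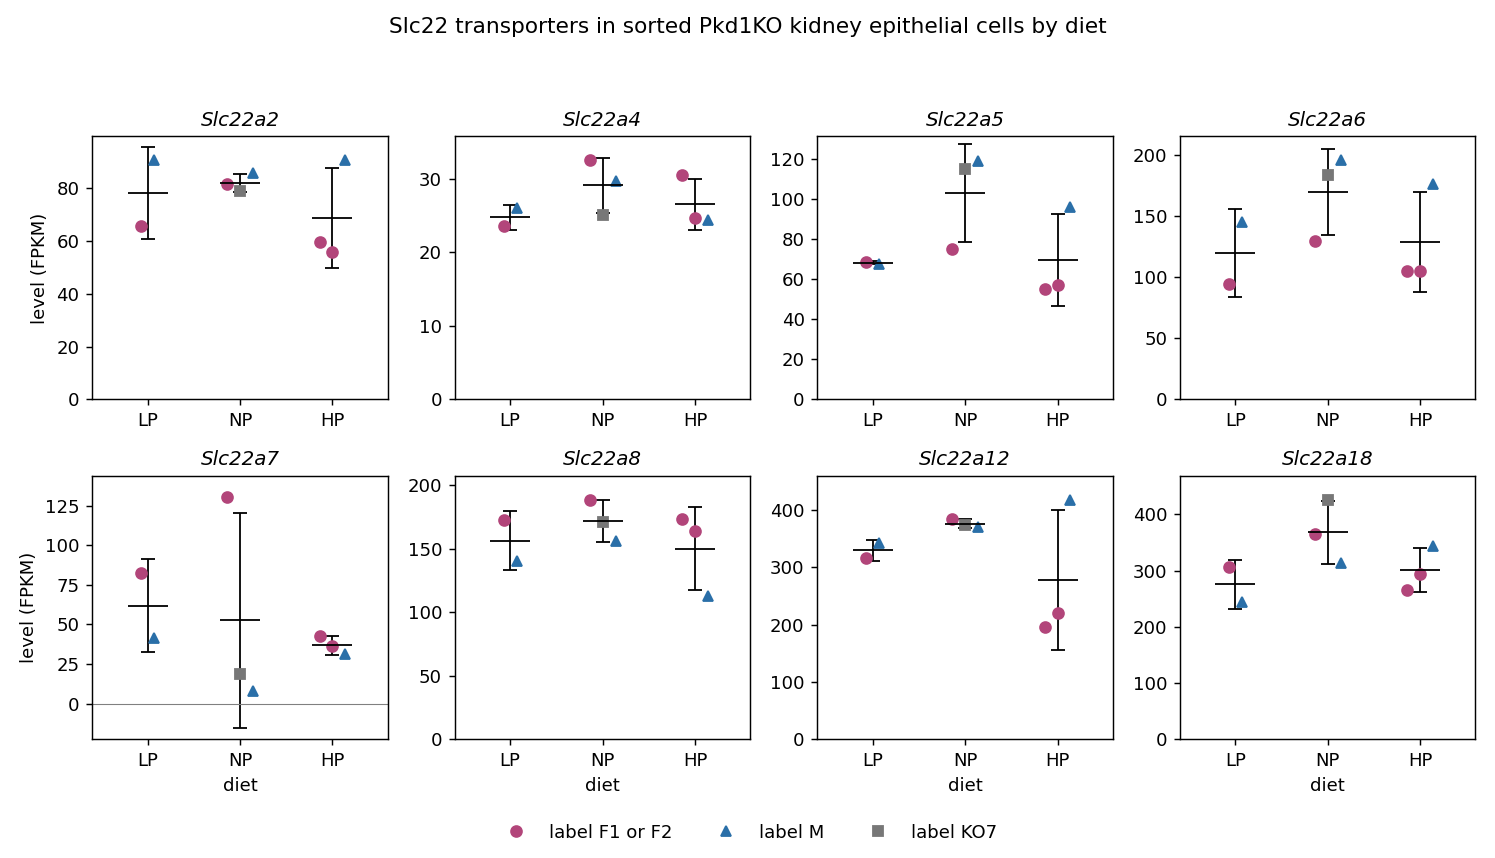
Level in FPKM (y axis, linear, from 0 where the bars allow) of each of the 8 transporters by diet (x axis), with 1 point per library shaped by its label and a line with bars for the diet mean and SD (n = 2 LP, 3 NP, 3 HP). Slc22a6 is higher in the library labelled M than in those labelled F within every diet, and Slc22a7 in NP runs from 8.09 to 131 FPKM.

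Slc22a2 (Oct2), the organic cation carrier of the basolateral membrane, was 65.6 and 90.4 FPKM in LP F2 and LP M, 81.6, 78.8 and 85.6 in NP F2, NP KO7 and NP M, and 59.5, 55.7 and 90.4 in HP F1, HP F2 and HP M. The 2 HP libraries labelled F were the lowest of all 8, HP M was among the highest, and the diets overlapped. HP against NP was -0.29 on the log2(FPKM + 1) scale (SE 0.20, 95% interval -0.74 to 0.16), so a change of either sign was not shown. It ranged from -0.50 without HP M to -0.16 without HP F2.

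Slc22a4 (Octn1), a carrier of ergothioneine and other zwitterions, was the lowest and steadiest member. It was 23.5 and 26 FPKM in LP F2 and LP M, 32.5, 25.1 and 29.7 in NP F2, NP KO7 and NP M, and 30.5, 24.7 and 24.4 in HP F1, HP F2 and HP M. No diet or label stood apart, and its differences between diets ranged from -0.22 (LP against NP) to 0.09 (HP against LP).

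Slc22a5 (Octn2), the sodium-dependent carnitine transporter that recovers carnitine from the filtrate, was 68.9 and 67.8 FPKM in LP F2 and LP M, 75.0, 115 and 119 in NP F2, NP KO7 and NP M, and 55.4, 57.4 and 96.0 in HP F1, HP F2 and HP M. Both LP libraries lay below all 3 NP libraries, whereas HP M lay inside the NP range. HP against NP was -0.58 (SE 0.24, 95% interval -1.13 to -0.03), with an unadjusted p of 0.0415. It did not pass the test over all genes (limma, adjusted p = 0.548). In the fits without the labels it was the only difference between diets among the 8 genes with an unadjusted p under 0.05. LP against NP was -0.56 (SE 0.27, adjusted p = 0.510).

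Slc22a6 (Oat1), the organic anion exchanger that takes up para-aminohippurate from blood, was 94.4 and 146 FPKM in LP F2 and LP M, 130, 184 and 196 in NP F2, NP KO7 and NP M, and 105.5, 105.5 and 176 in HP F1, HP F2 and HP M. Within each diet the library labelled M was the highest, and NP KO7 lay next to NP M. HP against NP was -0.42 (SE 0.26, 95% interval -0.998 to 0.17). LP against NP was -0.51, with a range from -0.82 without LP M to -0.20 without LP F2, none of them called.

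Slc22a7 (Oat2), a carrier of organic anions and small metabolites, was 82.5 and 41.2 FPKM in LP F2 and LP M, 131, 18.9 and 8.09 in NP F2, NP KO7 and NP M, and 42.8, 36.2 and 31.2 in HP F1, HP F2 and HP M. The NP libraries held both the highest and the lowest level of the 8, and the HP libraries lay close together between them. The SD was thus 67.8 FPKM around a mean of 52.5 on NP and 5.81 around 36.7 on HP. Even in NP M the level corresponded to about 340 fragments, by the estimated depth and the median length of its transcripts.

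Slc22a8 (Oat3), the second large basolateral organic anion exchanger, was 173 and 140 FPKM in LP F2 and LP M, 188, 171 and 156 in NP F2, NP KO7 and NP M, and 173, 164 and 112 in HP F1, HP F2 and HP M. Here the library labelled M was the lowest within every diet, the reverse of Slc22a6. HP against NP was -0.22 (SE 0.18, 95% interval -0.63 to 0.20), and it was -0.02 without HP M and -0.33 without HP F1.

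Slc22a12 (Urat1), the urate exchanger of the brush border, was 317 and 342 FPKM in LP F2 and LP M, 385, 373 and 370 in NP F2, NP KO7 and NP M, and 195, 221 and 417 in HP F1, HP F2 and HP M. The NP libraries agreed closely (SD 7.99), while HP held the 2 lowest libraries of all and also the highest (SD 121). HP against NP was -0.52 (SE 0.25, 95% interval -1.08 to 0.05, limma, adjusted p = 0.603). Without HP M it was -0.85 (adjusted p = 0.0643) and without HP F1 -0.31 (adjusted p = 0.742), the ends of its range with each library left out.

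Slc22a18 (Orctl2), an orphan member in the imprinted region of distal chromosome 7 between Cdkn1c and Phlda2, was 306 and 245 FPKM in LP F2 and LP M, 364, 425 and 314 in NP F2, NP KO7 and NP M, and 266, 295 and 343 in HP F1, HP F2 and HP M. NP KO7 was the highest library, and LP lay below NP without overlap. LP against NP was -0.41 (SE 0.19, 95% interval -0.83 to 0.01, limma, adjusted p = 0.479).

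By diet, none of the 8 genes passed the test. In HP against NP 0 of 8 were called, where 0.0221% of all genes tested were called, 1 of 8 had an unadjusted p under 0.05 (8.88% of all genes), and 7 of 8 differences were below 0 with a median of -0.29 against -0.05 over all genes. In HP against LP 0 of 8 were called (0.0147% of all genes), none had an unadjusted p under 0.05, 5 of 8 were below 0 and the median was -0.05. In LP against NP 0 of 8 were called (0.0147% of all genes), none had an unadjusted p under 0.05, 7 of 8 were below 0 with Slc22a7 above, and the median was -0.20 against -0.02. These comparisons share their NP, LP or HP libraries and are not independent of each other. The labels were not balanced between the diets, since HP held F1, F2 and M and NP held F2, M and KO7. NP KO7 carried Ddx3y and little Xist, as did NP M and HP M. The part of the labels in the differences above was not tested, and a fit with the letter of the label as a covariate is given below. In bulk RNA, fewer cells of a type and less RNA per cell cannot be told apart.

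**Figure D2:**
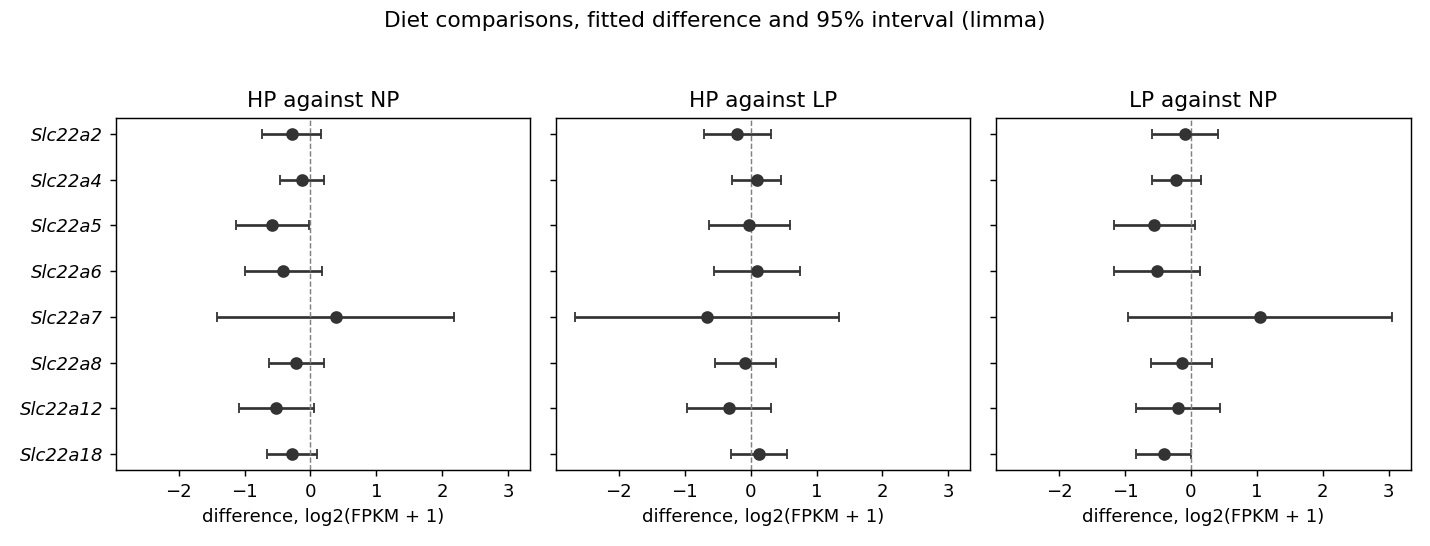
Fitted difference on the log2(FPKM + 1) scale (x axis) with its 95% interval from limma for the 8 transporters (y axis) in HP against NP, HP against LP and LP against NP. Points other than those of Slc22a7 lie between -0.58 and 0.13, the intervals of Slc22a7 are the widest, and the interval of Slc22a5 in HP against NP ends at -0.03.

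Libraries of HP and NP overlapped for all 8 genes, where 12.4% of all genes tested had no overlap, and those of HP and LP overlapped for all 8, where 33.2% of all genes had none. LP lay wholly below NP for 3 of 8 genes, Slc22a5, Slc22a12 and Slc22a18, against 29.1% of all genes with no overlap in either direction, a share near the background. In LP against NP 7 of 8 thick ascending limb and all 11 collecting duct markers were also below 0, and all 10 macrophage markers above 0. None of these was called (limma, 0.0147% of all genes). An unadjusted p under 0.05 was found for 6 of 8, 10 of 11 and 2 of 10, against 10.4% of all genes. Summed thick ascending limb markers were 704 to 773 FPKM on LP, 1000 to 2064 on NP and 1184 to 2465 on HP, and summed collecting duct markers were 190 to 200 FPKM on LP, 340 to 547 on NP and 283 to 432 on HP. Summed macrophage markers were 194 to 212 FPKM on LP, 93.8 to 161 on NP and 209 to 254 on HP. All 10 were above 0 in HP against NP, with none called and 4 at an unadjusted p under 0.05 (8.88% of all genes). Summed endothelial markers (8 genes) were 73.7 to 81.9, 64.2 to 74.9 and 76.2 to 142 FPKM. The mean log2(FPKM + 1) of the 20 proximal tubule markers was 8.09 to 8.48 on LP, 8.20 to 8.62 on NP and 7.99 to 8.51 on HP. The part of these markers in the differences was not tested.

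The comparison of the libraries labelled M with those labelled F asked which of the genes vary with the label inside the diets (3 against 4 libraries, NP KO7 left out, diet in the fit). Of 7 genes known to be higher in male mouse kidney, such as Kap and Slc7a13, all 7 were called higher in M, and of 3 known to be higher in female kidney 2 were called lower. Slc22a6 was higher in M, at 173 ± 25.4 FPKM (SD, n = 3) against 109 ± 15.0 (n = 4), with a difference of 0.66 (SE 0.09, limma, adjusted p = 0.00632). It was the 1 of 8 genes called, where 3.02% of all genes tested were called. The ratio of M to F2 was 1.54 on LP, 1.51 on NP and 1.67 on HP. Without HP F1 the difference was 0.65 (adjusted p = 0.0437), and without LP M it was 0.67 (adjusted p = 0.0146). The call was lost with no filter on low values (adjusted p = 0.0737) and after scaling to all 20 proximal tubule markers (0.24, adjusted p = 0.0831). That scaling put the median of all genes at -0.33 (0.01 without it), and with the sex-biased markers left out the difference was 0.77 (adjusted p = 0.0188).

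**Figure D3:**
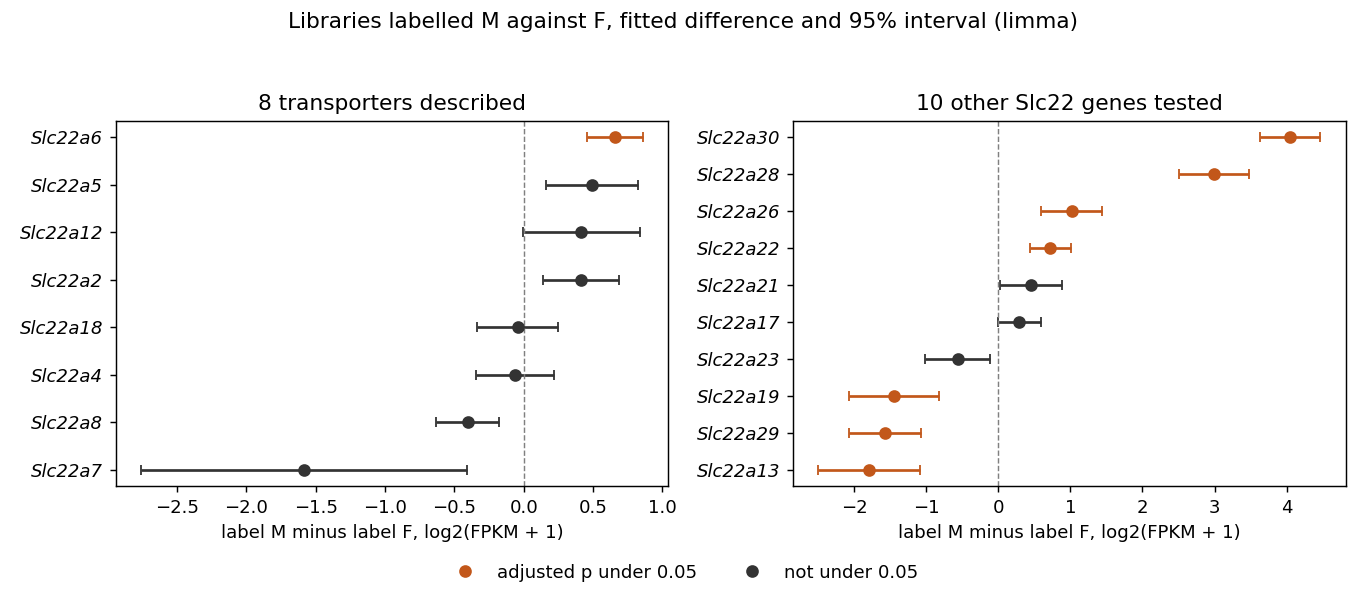
Difference between libraries labelled M and F on the log2(FPKM + 1) scale (x axis) with its 95% interval from limma, for the 8 transporters (left) and 10 other Slc22 genes (right). Orange points have an adjusted p under 0.05: Slc22a6 on the left, and 4 genes above 0 and 3 below 0 on the right.

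The other members did not pass this test. Slc22a8 was 136 ± 21.9 FPKM in M and 174 ± 10.1 in F, without overlap, and the difference was -0.40 (SE 0.10, limma, adjusted p = 0.0768; -0.45 without LP M, adjusted p = 0.128). Slc22a2 was 88.8 ± 2.77 in M and 65.6 ± 11.4 FPKM in F, also without overlap (0.41, SE 0.12, adjusted p = 0.138; 0.40 without LP M). Slc22a6, Slc22a2 and Slc22a8 were thus the 3 of 8 genes whose M and F libraries did not overlap, against 9.2% of all genes tested. NP KO7, left out of this comparison and with Ddx3y but hardly any Xist, lay with the M libraries for Slc22a6 (184 FPKM). For Slc22a2 it was at 78.8 FPKM, below NP F2, and for Slc22a8 at 171 FPKM, inside the range of the F libraries.

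Slc22a5 differed by 0.49 (SE 0.15, limma, adjusted p = 0.138). It was level between the LP libraries, with an M to F2 ratio of 0.99, against 1.59 on NP and 1.67 on HP. With either LP library left out, the fit compared labels on NP and HP only and gave 0.72 (adjusted p = 0.0182 without LP F2 and 0.0130 without LP M), so that the LP libraries decided that call.

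Slc22a7 differed by -1.58 (SE 0.52, limma, adjusted p = 0.183; -1.84 without LP M, adjusted p = 0.161), with the largest standard error of the 8. Its size rested on the NP libraries, since without NP F2 or NP M the difference was -0.61, and without HP M it was -2.42 (adjusted p = 0.0560). Its level in F2 was 2.00-fold that in M on LP, 16.1-fold on NP and 1.16-fold on HP. NP KO7 was at 18.9 FPKM, nearer to NP M than to NP F2.

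Slc22a12 differed by 0.42 (SE 0.19, limma, adjusted p = 0.354; 0.55 without LP M). The M to F2 ratio was 1.08 on LP, 0.96 on NP and 1.89 on HP, and without HP M the difference was 0.03, against 0.62 without NP F2 or NP M. In the HP libraries cell type markers also differed by label. Summed thick ascending limb markers were 2465 and 2302 FPKM in HP F1 and HP F2 and 1184 in HP M, and summed endothelial markers 142, 128 and 76.2. Summed proximal tubule markers, a list with the male-biased Kap, Slc7a13 and Cyp2e1, were 18130, 16939 and 44769 FPKM. Their mean log2(FPKM + 1) was 8.15, 7.99 and 8.51. The proximal tubule sum was also lower in F2 than in M on LP (24672 and 41640 FPKM) and NP (22181 and 34053 FPKM). The part of these markers in the difference was not tested. Slc22a4 (-0.06, SE 0.12) and Slc22a18 (-0.04, SE 0.13) were near 0, with 95% intervals of -0.34 to 0.22 and -0.34 to 0.25. Without LP M they were -0.15 and 0.08, and neither was called. Both depended on the scaling. After scaling to all 20 proximal tubule markers, which put the median of all genes at -0.33, both were called (-0.47, adjusted p = 0.0172, and -0.46, adjusted p = 0.0405), and with the sex-biased markers left out both were above 0 (0.050 and 0.073).

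**Figure D4:**
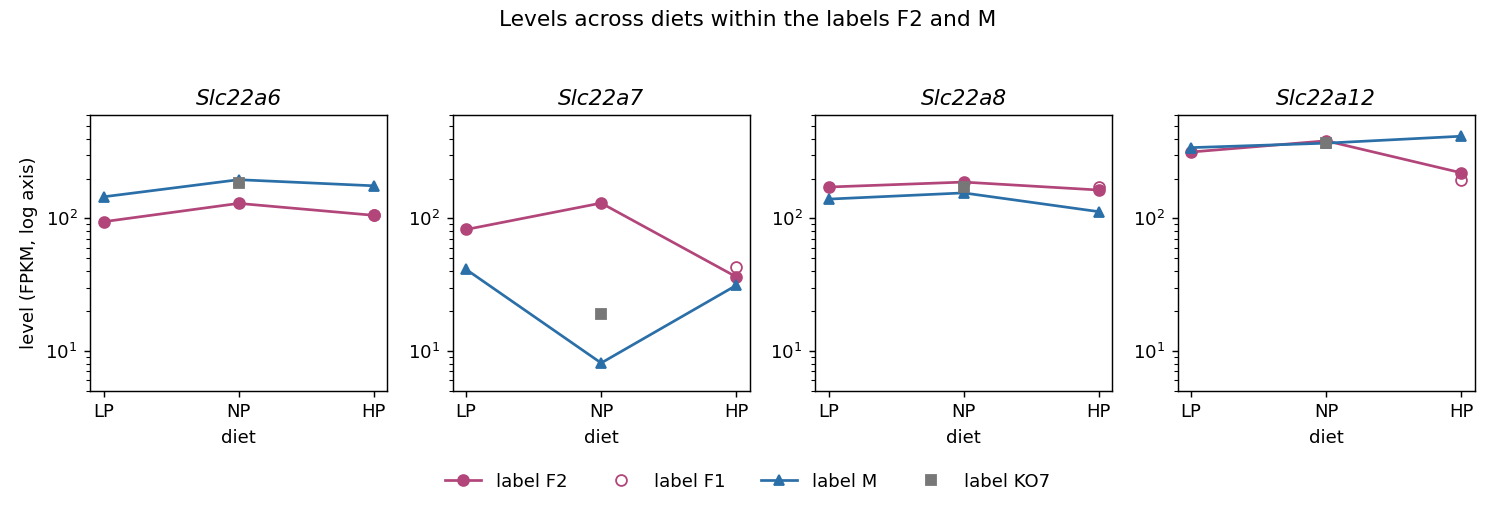
Levels in FPKM (y axis, log scale) of 4 transporters across the diets (x axis), with a line through the libraries labelled F2 and a line through those labelled M, and HP F1 and NP KO7 as single points. Slc22a6 and Slc22a8 keep their order of labels in every diet, Slc22a7 is 16.1-fold apart on NP and 1.16-fold on HP, and Slc22a12 is apart on HP.

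Within the labels, HP against NP gave ratios below 1 in both F2 and M for Slc22a4 (0.76 and 0.82), Slc22a5 (0.77 and 0.81), Slc22a6 (0.81 and 0.90) and Slc22a8 (0.87 and 0.72). For Slc22a2 (0.68 and 1.06), Slc22a7 (0.28 and 3.85), Slc22a12 (0.57 and 1.13) and Slc22a18 (0.81 and 1.09) F2 was below 1 and M above it. With the letter as a covariate and NP KO7 left out, Slc22a5 was -0.40 (limma, adjusted p = 0.350), Slc22a8 -0.28 (adjusted p = 0.334) and Slc22a6 -0.24 (adjusted p = 0.366) in HP against NP. The unadjusted p was 0.0470 for Slc22a5 and 0.0409 for Slc22a8. In LP against NP this fit gave -0.44 for Slc22a6 (limma, unadjusted p = 0.00421, adjusted p = 0.137) and -0.46 for Slc22a5 (unadjusted p = 0.0371, adjusted p = 0.262). The remaining differences between diets of the 8 genes had no unadjusted p under 0.05 in this fit. The share of all genes with such a p was not counted there. None of the 8 genes was called in any diet comparison. The count over all genes rose from 3 to 44 (HP against NP), from 2 to 189 (HP against LP) and from 2 to 16 (LP against NP).

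Of 17 other Slc22 genes, 11 passed the filter on low values. In the fits without the labels none of the 11 was called between diets or had an unadjusted p under 0.05 (limma). With the letter as a covariate and NP KO7 left out, none was called either. In HP against LP, Slc22a13 (-1.32), Slc22a19, Slc22a28, Slc22a29 (-1.11, limma, adjusted p = 0.0744) and Slc22a30 (-0.74) were below 0 in that fit. Each had an unadjusted p under 0.05. Such a p was also found in HP against NP for Slc22a22, Slc22a28 and Slc22a30, all below 0. In LP against NP it was found for Slc22a13 and Slc22a29, both above 0. Slc22a16 and Slc22a20 were listed at 0 in every library. Between the labels 7 of the 11 were called, 4 higher in M and 3 lower, where 3.02% of all genes tested were called.

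Slc22a30 was 3.98, 3.63, 1.15 and 1.94 FPKM in LP F2, NP F2, HP F1 and HP F2 and 69.5, 60.8 and 54.1 in LP M, NP M and HP M (4.05, SE 0.18, limma, adjusted p = 9.33e-06). Slc22a28 differed likewise (2.99, adjusted p = 0.000156), and Slc22a26 (1.02) and Slc22a22 (0.72) by less. Slc22a13 (-1.79, adjusted p = 0.0181), Slc22a29 (-1.57) and Slc22a19 (-1.45) were lower in M. All 7 were called without LP M, at 4.15 for Slc22a30 and -2.16 for Slc22a13. Slc22a26 and Slc22a22 were not called without NP F2, without NP M or without HP M, Slc22a26 also not without HP F2, and Slc22a22 and Slc22a19 not with median-of-ratios scaling. Without HP F1 or with no filter on low values 2 of the 7 were called, Slc22a30 and Slc22a28. Slc22a19, Slc22a26, Slc22a28, Slc22a29 and Slc22a30 are close paralogs, so reads could be split between them by the authors' counting.

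Slc22a13 and Slc22a19 shared with Slc22a7 their wide spread on NP. Slc22a13 was 64.2 and 32.8 FPKM in LP F2 and LP M, 69.9, 14.6 and 7.36 in NP F2, NP KO7 and NP M, and 31.7, 31.1 and 10.8 in HP F1, HP F2 and HP M. Slc22a19 was 71.3 and 38.9 FPKM in the LP libraries, 85.9, 16.7 and 13.2 in those of NP, and 34.8, 33.3 and 16.2 in those of HP, in the same order. All 3 genes were highest in NP F2 and lowest in NP M. On HP they differed, with HP M well below HP F1 and HP F2 for Slc22a13 and Slc22a19 and close to them for Slc22a7.

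Among 19 partners of organic ion transport, 17 were tested and none was called between diets (limma, with 2, 2 and 1 of 17 at an unadjusted p under 0.05 in HP against NP, HP against LP and LP against NP, against 8.88, 12.4 and 10.4% of all genes). With the letter as a covariate Abcb1b was called in HP against LP (-1.02, adjusted p = 0.0457). Between labels Slc17a3, a urate carrier in human kidney (0.82), and Slco1a1, an organic anion polypeptide (4.76), were higher in M, and the efflux pumps Abcc4 (-1.03) and Abcb1b (-1.07) and the dicarboxylate carriers Slc13a2 (-0.55) and Slc13a3 (-0.43) were lower. These were 6 of the 17, where 3.02% of all genes tested were called. Slco1a1 is also 1 of the 7 genes known to be higher in male kidney that were counted above. Slc13a3 takes up the dicarboxylates that Oat1 and Oat3 exchange, and it was 163 to 272 FPKM. Slc47a1 (Mate1), which passes cations from Oct2 to the urine, was 148 to 253 FPKM, and Pdzk1, a scaffold that binds Urat1 and Octn2, 474 to 617 FPKM. The calls of Slc13a2 and Slc13a3 were lost with any 1 of the 7 libraries left out, LP M included (-0.61, adjusted p = 0.0522, and -0.47, adjusted p = 0.0742), with equal FPKM sums and with no filter on low values. Without LP M the other 4 were called (Slco1a1 4.64, Slc17a3 0.89, Abcc4 -1.14 and Abcb1b -1.21). Abcb1b was lost without NP F2 or NP M. Slc17a3 and Slc13a3 were not called with median-of-ratios scaling. With scaling to proximal tubule markers without the sex-biased ones, Slc13a2 and Slc13a3 were not called, and Slc47a1 and Slc5a12 were called higher in M. Without HP F1 3 of the 6 were called, Slco1a1, Abcc4 and Abcb1b, and without HP M or with no filter 1, Slco1a1.

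Genes of carnitine use, 7 of 8 listed tested, were not called in any comparison by limma. Their median in HP against NP was -0.42 against -0.05 over all genes, and 4 of 7 had an unadjusted p under 0.05, as had none in HP against LP, 3 in LP against NP and 3 in M against F. Of all genes, 8.88, 12.4, 10.4 and 14.4% had one in these 4 comparisons. Cpt1a, the entry step of fatty acids into mitochondria, was 41.0 and 45.0 FPKM on LP, 60.7, 84.5 and 85.4 on NP and 48.5, 46.8 and 66.5 on HP. Its LP libraries lay below those of NP as for Slc22a5, where 29.1% of all genes had no overlap in either direction. Of the 7 genes, 5 were below 0 in LP against NP and 2 above. Aldh9a1, an enzyme of carnitine synthesis, was 95.3 and 132 on LP, 156, 156 and 187 on NP and 120, 113 and 138 FPKM on HP.

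Of 8 transcription factors known for these genes or for sex-dependent expression, all 8 were below 0 in HP against NP, with a median of -0.52 against -0.05 over all genes. None was called by limma, and 3 had an unadjusted p under 0.05, against 8.88% of all genes. LP against NP had a median of -0.48 (-0.02 over all genes), 6 of the 8 below 0 and 4 at an unadjusted p under 0.05 (10.4% of all genes). HP against LP had a median of -0.01, 4 below 0 and 2 at such a p (12.4% of all genes). None was called there either. Hnf4a was 113 and 152 FPKM on LP, 185, 188 and 176 on NP and 119, 97.1 and 122 on HP. HP against NP was -0.70 (SE 0.15, limma, adjusted p = 0.235). Its HP and NP libraries did not overlap, as was so for 12.4% of all genes tested in either direction.

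Beside Slc22a18, 6 genes of its region were all tested, and none was called between diets (limma). In HP against NP, HP against LP and LP against NP, 0, 1 and 1 had an unadjusted p under 0.05. Of all genes, 8.88, 12.4 and 10.4% had such a p. Cdkn1c, the imprinted cyclin-dependent kinase inhibitor next to it, was lower in M (-0.92, SE 0.15, limma, adjusted p = 0.0132), with 8.79 to 12.1 FPKM in M and 15.9 to 21.5 in F. Of the 6 it was the only gene called between the labels, where 3.02% of all genes were called. It was called without LP M (-1.01, adjusted p = 0.0166) and not without HP F1. Phlda2, on the other side, was 12.0 to 23.6 FPKM.

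Over the 8 libraries, log2 levels of Slc22a5 and Slc22a6 (r = 0.90), of Slc22a2 and Slc22a12 (r = 0.89) and of Slc22a2 and Slc22a6 (r = 0.80) were the most alike among the 28 pairs of members, and those of Slc22a6 and Slc22a7 ran most nearly opposite (r = -0.70). The points share their diet and label groups, so these values describe the libraries only. Among 5607 other genes with a mean of at least 10 FPKM, the closest to Slc22a6 were Tmem178 (r = 0.995) and Slco3a1 (0.979), to Slc22a7 Napsa (0.972) and Methig1 (0.970), and to Slc22a12 Slc44a4 (0.973) and Plxdc2 (0.960). Closest to Slc22a2 were Cd36 (0.963) and Edem1 (0.941), to Slc22a4 Txnrd1 (0.963) and 2900097C17Rik (0.959), to Slc22a5 Nat8 (0.954) and Lipa (0.936), to Slc22a8 Fhod3 (0.966) and Ngef (0.964), and to Slc22a18 Lrp10 (0.943) and Slc25a34 (0.941).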

How the data were processed

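The authors sorted epithelial cells from kidney suspensions stained with LTL and DBA for tubules and with CD11b and F4/80 for macrophages. They trimmed reads with Trim Galore 0.6.7 and used RSEM 1.3.3 with GENCODE release M26 (GRCm39), and deposited 1 table of FPKM per gene. The labels and the methods name different library kits, and the strand setting is not given in the sources used here. RSEM splits reads that fit several paralogs. FPKM keeps no counts, so depth was estimated from the steps between low values of genes with 1 transcript in GENCODE M21 (78.6 to 83.2% of values within 0.15 of a whole fragment). Symbols were matched through M21 for 52093 of 53700 identifiers. No gene coordinates of GRCm39 were used.

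Levels were compared with limma 3.58.1 (R 4.3.3), whose prior variance followed the mean level, on log2(FPKM + 1). Genes needed 1 FPKM or more in 2 or more libraries, which 13566 met, with Benjamini-Hochberg adjustment over all of them at 0.05. Fold changes on this scale understate changes of low genes. All 8 libraries entered the diet fits with 1 mean per diet, and 7 the fit of M against F. The fit was tested on simulated data, with changes larger than those of the members in the main fits and with noise independent between libraries. That test does not cover small differences. The members and lists were chosen with earlier results of these data known. All members were named, and of each list the genes called and at most 4 with the highest mean. Some genes that this rule names are not reported here. Deviations from the diet means correlated at 0.145 to 0.346 in the 6 pairs of libraries that share the label F2 or M, every pair above 0.1, so the labels were also fitted as a replicate block. Other alternatives were a pseudocount of 0.1, no filter, 4 scalings (that by proximal tubule markers without sex-biased ones was chosen after seeing the data), the letter as covariate, a fit on 2 diets and leaving out each library.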

Additional observations from a re-analysis of the deposited data

Results flagged for a closer look

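All 8 members were checked in HP against NP, HP against LP and LP against NP. In 6 cases the comparison went one way in the libraries labelled F and the opposite way in those labelled M. The change was at least 0.1 on the log2(FPKM + 1) scale in every library. How often other genes meet this rule was not counted. With 1 library labelled M per diet, these differences were not tested. For HP against NP the change in F2 minus the change in M was -3.64 for Slc22a7 (-1.82 and 1.82), -0.97 for Slc22a12 (-0.80 and 0.17) and -0.43 for Slc22a18 (-0.31 and 0.13). For HP against LP it was -0.75 for Slc22a5 (-0.26 and 0.49) and -0.80 for Slc22a12 (-0.52 and 0.28). For LP against NP it was -2.87 for Slc22a7 (-0.66 and 2.21). In none of the members was a single library far from the rest of the 4 labelled F.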

How the results depend on the processing

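In the diet comparisons 0 members were called under every alternative run. In M against F the count was 1 as reported, 0 with no filter on low values, 2 with equal FPKM sums (Slc22a7 joined), 4 after scaling to proximal tubule markers (Slc22a4, Slc22a7, Slc22a8 and Slc22a18, without Slc22a6), and 1 to 2 with a library left out. Of 520 member values under the alternatives 30 changed sign, none of them called (lowest adjusted p 0.784), and the cause was not tested. Scaling to proximal tubule markers gave 0.10 (Slc22a4) and 0.024 (Slc22a8) in HP against NP, 0.042 (Slc22a5) in HP against LP, and 0.087 (Slc22a2) and 0.038 (Slc22a8) in LP against NP. The median of all genes was 0.15, 0.02 and 0.12 there, against -0.05, -0.04 and -0.02 as deposited. Without the sex-biased markers M against F was 0.050 (Slc22a4) and 0.073 (Slc22a18). For Slc22a5 in HP against LP, equal sums gave 0.047, median-of-ratios scaling 0.027 and the letter covariate 0.061. The letter covariate gave -0.15 for Slc22a7 in HP against NP. The replicate block gave -0.012 (Slc22a4) and 0.12 (Slc22a5) in HP against LP and 0.65 for Slc22a6 in M against F, where it is the same fit as leaving out HP F1, and it changed no call of a member.

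With each library left out in turn, HP against NP ranged from -0.45 to 1.48 for Slc22a7. HP against LP ranged from -0.43 to 0.028 (Slc22a2), -0.012 to 0.16 (Slc22a4), -0.27 to 0.12 (Slc22a5), -0.22 to 0.40 (Slc22a6), -0.23 to 0.11 (Slc22a8) and -0.032 to 0.29 (Slc22a18). LP against NP ranged from -0.32 to 0.14 (Slc22a2) and -0.29 to 0.012 (Slc22a8), and M against F from -0.15 to 0.0060 (Slc22a4) and -0.27 to 0.075 (Slc22a18). Over all genes, M against F called 410, 35 with no filter, 160 with the block and 4741 after proximal tubule scaling. HP against NP called 3, 38 without HP M and 8 with the block.

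Groups of 2 or 3 pools leave wide intervals, so a difference that missed the threshold is not shown to be 0. Depth was estimated and did not set the limit for these genes, the lowest at about 340 fragments in a library.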
